A study of Mus musculus with 15 samples.

Results

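The libraries described here are 4 H3K4me1 ChIP-MNase libraries of BAF-knockdown 3T3 fibroblasts, 2 of which carry the code 04U in their names and 2 the code 12U. Replicate 1 is the 04U library and replicate 2 the 12U library, in resting cells as in cells given TNF-α (5 ng/ml, for 1 h). The 4 libraries of control fibroblasts, resting and stimulated in the same way, all carry 12U, so that replicate 1 minus replicate 2 in control cells gives a difference between replicates in which the code does not change. These 8 libraries are part of a series of 15. What the letters stand for is not given in the sources used here, and the label of these libraries as digestions could not be checked. The study titrated MNase for each sample and chose the digestion to be sequenced by its share of mononucleosome-sized fragments. A different code therefore need not mean a different degree of digestion. A further number code in the names goes with the replicate number in both lines, so the unit code and any other difference between replicates that is special to the BAF-knockdown line cannot be told apart.

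3T3 is an established mouse fibroblast line. Knockdown cells carried a retroviral shRNA against Brg1 and Brm together and were sorted by GFP, and control cells received the control vector. The study counts its replicates as biological. Libraries of DNA hold no mRNA, so the knockdown itself was not checked here, and occupancy at the promoters of the targets tests nothing of it. Of the targets, Smarca4 (Brg1) had a promoter with a coverage score of 283, while both Smarca2 (Brm) promoters had low scores of 49 and 33.8. This score was not taken from the 8 libraries. In them, filled bins ranged from 41.5% to 73% at Smarca4, and from 45% to 74.5% and 39.5% to 72% at the Smarca2 promoters.

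Micrococcal nuclease (MNase) cuts linker DNA between nucleosomes and digests exposed DNA further, so that nucleosomes which hold DNA loosely can be lost from the mononucleosomal fraction when digestion goes on. Active promoters have a nucleosome-depleted region (NDR) just upstream of the TSS, flanked by the −1 nucleosome and the well-positioned +1 nucleosome, with a regularly spaced array downstream. NDRs are deepest at CpG-island (CGI) promoters. The BAF complex is an ATP-driven remodeller that moves or evicts nucleosomes, with Brg1 or Brm as its motor.

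Occupancy is a signal relative to the surrounding 1 kb, in 200 bins of 10 bp from −1000 to 1000 bp of each TSS. Of 25881 promoters, 13559 (52.4%) had a coverage score above 100 and were used. Of these, 6458 were active (expression above 0.02 of the mean of all promoters), 2301 inactive (expression of 0), 7618 CGI and 5941 non-CGI. The depth of each library cannot be read from the deposited values. In its place, the share of bins above 0 ranged from 63.5% to 78.1% over the 8 libraries, and their mean occupancies from 0.791 to 0.804.

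Libraries did not group by the unit code. By the distance between square-root mean profiles over all used promoters, the 2 control libraries of replicate 1 lay near both resting BAF-knockdown libraries (0.0712 to 0.136 over 6 pairs), and the 2 control libraries of replicate 2 near both stimulated BAF-knockdown libraries (0.1 to 0.18 over 6 pairs). Distances between these sets were 0.191 to 0.284 over 16 pairs. Within each line, control libraries were thus closest by replicate number, whereas BAF-knockdown libraries were closest by stimulation. Each 04U library was closer to the 12U library of its own condition (0.119 in resting and 0.18 in stimulated cells) than to the other 04U library (0.219). The stimulated 04U library was closer still to control replicate 2, at 0.114 from its resting and 0.161 from its stimulated library. Whether any library name is interchanged cannot be decided from these values, so every 04U minus 12U difference and every net difference given here holds for the libraries as labelled.

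At active promoters, the 04U and 12U libraries of BAF-knockdown cells had NDRs of nearly the same depth, while the control replicates differed. To measure depth, the mean of bins between −150 and 0 bp was divided by the mean of the upstream flank (−1000 to −500 bp), and a low value of this NDR ratio is a deep NDR. In resting BAF-knockdown cells the ratio was 0.663 in the 04U library and 0.677 in the 12U library. In stimulated BAF-knockdown cells it was 0.529 in the 04U library and 0.539 in the 12U library. In resting control cells, both with 12U, it was 0.699 in replicate 1 and 0.535 in replicate 2. In stimulated control cells it was 0.654 in replicate 1 and 0.585 in replicate 2. Replicate 1 was therefore slightly deeper in both BAF-knockdown conditions and shallower in both control conditions.

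Written as replicate 1 minus replicate 2, the ratio differed by −0.0139 and −0.00979 in BAF-knockdown cells (resting and stimulated) and by 0.163 and 0.0688 in control cells. The net difference, 04U minus 12U in BAF-knockdown cells less the same replicate difference in control cells, was −0.128 ± 0.0886 (SE of a linear model over 8 libraries, with line, replicate, stimulation and code as terms). An exact two-sided permutation test of the 4 replicate differences gave p = 0.333, the smallest p this test can give, so it cannot pass a threshold of 0.05 for any library value. No p was taken from the linear model, whose SE stands beside each net difference instead. Without the control differences the value was −0.0119 (no replicate block). The size of the net difference thus came mainly from the control libraries. Leaving out the resting control replicate 2 gave −0.0503, and leaving out the stimulated control replicate 2 gave −0.205.

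The error also holds a difference between the lines in stimulation. Stimulated minus resting NDR ratios were −0.133 in the 04U libraries and −0.138 in the 12U libraries of BAF-knockdown cells. In control cells they were −0.0445 in replicate 1 and 0.0499 in replicate 2. With a line by stimulation term the net difference had an SE of 0.0472, a model added after these values were seen.

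**Figure D1:**
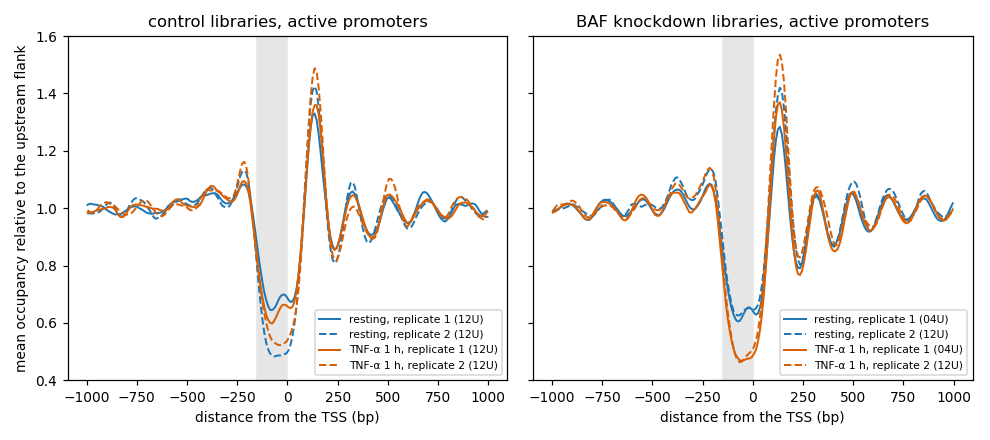
Mean occupancy at 6458 active promoters by distance from the TSS (bp), relative to the mean from −1000 to −500 bp, in control libraries (left) and BAF-knockdown libraries (right). Lines are single libraries (solid, replicate 1; dashed, replicate 2; blue, resting; orange, TNF-α) and the grey band is the TSS window. In the band, the control lines part by replicate number and the BAF-knockdown lines by stimulation, and the +1 peak is higher in the dashed line of every pair.

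Promoter classes differed in how far the control replicates parted, and the 04U and 12U libraries stayed close in each class. At CGI promoters the ratio was 0.658 (04U) and 0.666 (12U) in resting and 0.518 and 0.534 in stimulated BAF-knockdown cells, against 0.688 and 0.523 in resting and 0.66 and 0.576 in stimulated control replicates 1 and 2. The net difference at CGI promoters was −0.137 ± 0.0922 (SE). At non-CGI promoters, all 8 libraries had ratios between 0.901 and 0.933, and the net difference was −0.0334 ± 0.0133. Inactive promoters had no deep NDR in any library (0.915 to 0.974) and a net difference of −0.0487 ± 0.0202. Active CGI promoters gave −0.15 ± 0.104, active non-CGI promoters −0.0522 ± 0.0402, inactive CGI promoters −0.107 ± 0.11 and inactive non-CGI promoters −0.0372 ± 0.0178. Each of these 8 classes had an exact p of 0.333 in the same permutation test, and differences between classes were not tested.

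**Figure D2:**
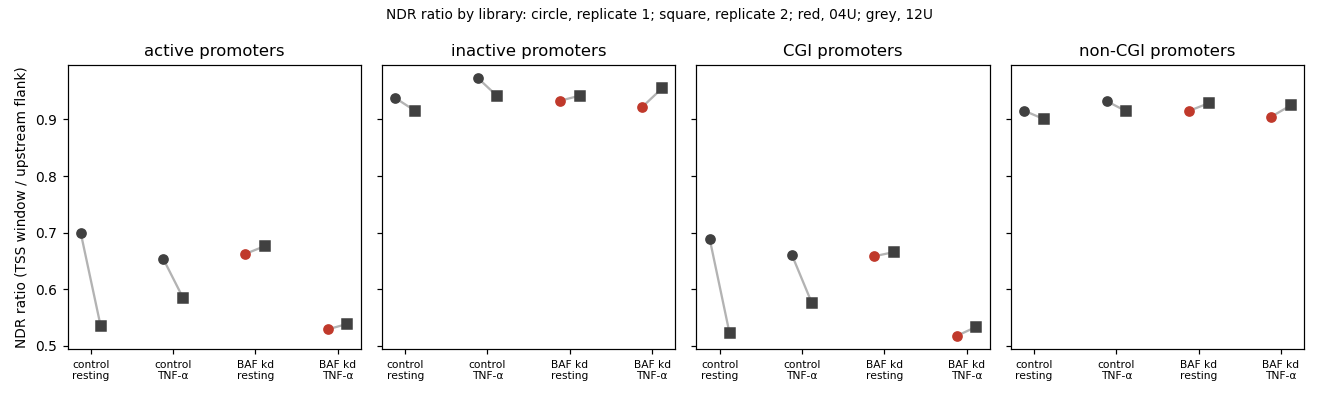
NDR ratio of the mean profile (TSS window over upstream flank) in each of the 8 libraries, for 4 promoter classes. Circles are replicate 1 and squares replicate 2, red marks 04U and grey 12U, and a line joins the replicates of a condition. Red circles lie slightly below the squares they are joined to in all 4 classes, and control circles lie above theirs.

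Base composition ordered the control replicate differences but not the 04U minus 12U differences. Promoters were divided into quintiles by GC content within 200 bp of the TSS, with median GC of 46.9%, 54.6%, 60.1%, 65.3% and 72.3%. From the lowest to the highest quintile, replicate 1 minus 2 in resting control cells was −0.00803, 0.0642, 0.102, 0.134 and 0.204. In stimulated control cells it was −0.016, 0.0313, 0.0662, 0.0811 and 0.112. The 04U minus 12U differences in BAF-knockdown cells stayed between −0.0305 and 0.00436 over all quintiles and both states. Net differences accordingly went from 0.00149 ± 0.0265 in the lowest quintile to −0.164 ± 0.0969 in the highest. The sign in the lowest quintile turned under 3 other settings. CpG islands are nearly absent from that quintile (2.99% of its promoters) and make up 98.6% of the highest, so that GC content and CGI status go together here. Over quintiles of active promoters by expression, net differences were −0.108, −0.117, −0.129, −0.154 and −0.132 from lowest to highest expression.

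GC dependence away from the NDR was also measured, as the slope of log2 occupancy on the GC content within 75 bp, in bins more than 500 bp from the TSS. In BAF-knockdown cells the slope per 10% of GC was −0.061 (04U) and −0.0768 (12U) at rest and −0.0775 (04U) and 0.0229 (12U) after stimulation. Control slopes lay between −0.0633 and −0.0127. The sign of the 04U minus 12U difference was opposite in the 2 states (0.0158 and −0.1), and the net difference of −0.0498 ± 0.0568 (exact permutation p = 0.667) was within its error.

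**Figure D3:**
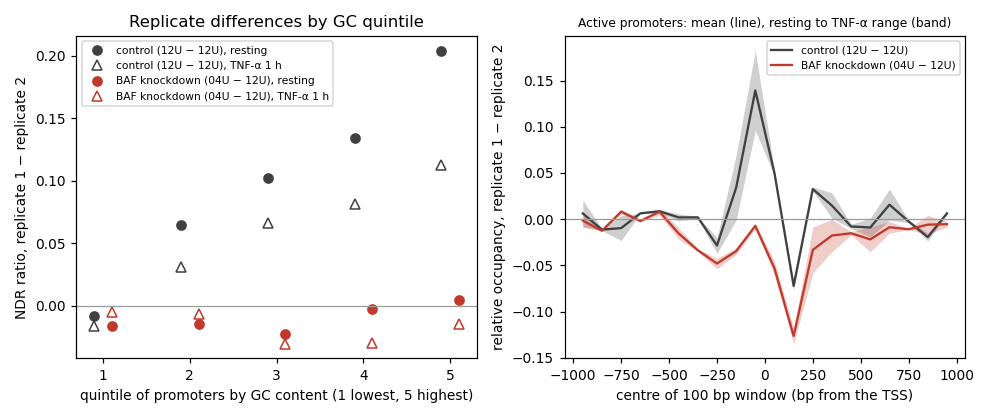
Left, replicate 1 minus replicate 2 in NDR ratio by quintile of promoters by GC content. Right, the same difference in relative occupancy at active promoters in 100 bp windows by distance from the TSS (bp), with the mean of both states as a line and their range as a band. Grey is control (12U in both replicates) and red BAF knockdown (04U minus 12U). Control points rise with GC content while the red points stay near 0, and both lines dip at the +1 nucleosome.

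Along the promoter, the lines differed at the TSS, while their replicate differences had the same sign at the +1 and −1 peaks. The signs also differed in some windows further out, among them 200 to 300 bp at active promoters. There, 04U minus 12U was −0.00857 and −0.058, the control replicates differed by 0.0304 and 0.0347, and the net difference was −0.0658 ± 0.0209. From −100 to 0 bp at active promoters, relative occupancy was 0.63 (04U) and 0.64 (12U) in resting and 0.479 and 0.483 in stimulated BAF-knockdown cells. Control replicates 1 and 2 had 0.672 and 0.49 at rest and 0.632 and 0.536 after stimulation. The net difference of this window, −0.147 ± 0.097, was the most negative of 20 windows. From 0 to 100 bp, 04U minus 12U was −0.0455 and −0.0608 and the control replicates differed by 0.0528 and 0.0468. The net difference there was −0.103 ± 0.0237, and that from −100 to 0 bp was within 2 SE of 0. Beside its SE, the value from 0 to 100 bp was not set apart from some windows far from the TSS. At active promoters 900 to 1000 bp had −0.0117 ± 0.00281, and at inactive promoters 400 to 500 bp had −0.0476 ± 0.00942. Some other far windows were within their SE, such as −1000 to −900 bp at active promoters (−0.00775 ± 0.0142). No test was made over the 20 windows, and each SE rests on 8 libraries.

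The +1 nucleosome peaked lower in replicate 1 of every condition, with 04U and without it. Its height relative to the flank was 1.283 in the 04U and 1.42 in the 12U library of resting BAF-knockdown cells. After stimulation it was 1.369 with 04U and 1.535 with 12U. Control heights in replicates 1 and 2 were 1.33 and 1.425 at rest and 1.359 and 1.488 after stimulation. The resting 04U library was the lowest of the 8 and the stimulated 12U BAF-knockdown library the highest. Differences were −0.137 and −0.166 in BAF-knockdown and −0.0946 and −0.128 in control cells, so that a net difference of −0.0398 ± 0.0363 (exact permutation p = 0.333) remained. The median of promoters in place of the mean gave −0.226. The peak lay 135 bp downstream of the TSS in 7 libraries and at 145 bp in the stimulated control replicate 1.

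The −1 nucleosome followed the same order. Heights were 1.085 (04U) and 1.136 (12U) in resting and 1.082 and 1.141 in stimulated BAF-knockdown cells, and 1.083 and 1.132 at rest and 1.095 and 1.162 after stimulation in control replicates 1 and 2. The net difference was 0.00296 ± 0.0142, with an exact permutation p of 1. Replicate 1 libraries also had more filled bins in every condition, 78.1% (04U) against 67.9% in resting and 76% against 68.3% in stimulated BAF-knockdown cells. Control shares were 74.9% against 69.7% at rest and 73.4% against 63.5% after stimulation. The net difference of filled bins was 1.42 ± 2.76 percentage points (exact permutation p = 0.667). Filled bins thus moved together with the lower +1 and −1 peaks in all 4 conditions, and their part in peak height was not tested.

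Nucleosome spacing differed in sign between the lines. The period was taken from the autocovariance of smoothed occupancy at all used promoters. The study measured spacing from distances between fragments, so its values are not directly comparable. Here the period was 176.4 bp (04U) and 178.5 bp (12U) in resting BAF-knockdown cells, and 176.7 bp (04U) and 177.5 bp (12U) after stimulation. In control replicates 1 and 2 it was 180.7 and 177.1 bp at rest and 180.6 and 176.5 bp after stimulation. The replicate 1 library of a condition therefore had a shorter period than replicate 2 where it carried 04U, and a longer one where it carried 12U. The net difference was −5.31 ± 0.559 bp, well beyond its SE (exact permutation p = 0.333, the smallest that test gives), of which −1.42 bp was the difference within BAF-knockdown cells. At a coverage score above 200 the SE was larger, with a net difference of −6.66 ± 2.6 bp. The 12U libraries of replicate 2 ranged from 176.5 to 178.5 bp over both lines.

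Phasing amplitude is the SD of the mean active profile from 200 to 800 bp about a quadratic trend, in percent of its mean. It was 6.04% (04U) and 6.31% (12U) in resting and 6.73% and 6.04% in stimulated BAF-knockdown cells, so that the code had no common direction there. Control values were 4.88% and 6.13% at rest and 4.6% and 5.21% after stimulation, lower in replicate 1 in both states. The net difference was 1.14 ± 0.664 percentage points (exact permutation p = 0.333).

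**Figure D4:**
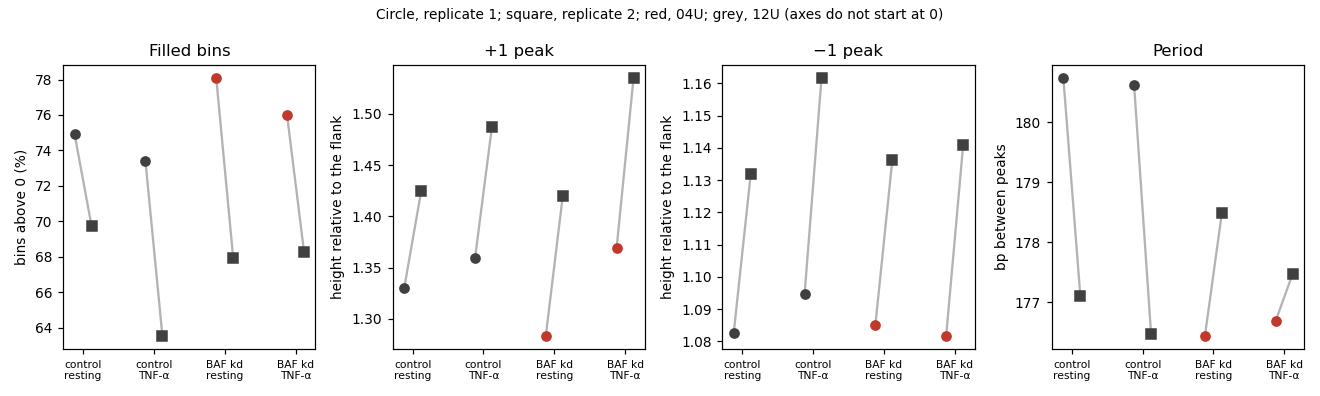
Share of filled bins (%), height of the +1 and −1 peaks relative to the flank, and period (bp) in each of the 8 libraries. Circles are replicate 1 and squares replicate 2, red marks 04U and grey 12U. Replicate 1 has more filled bins and lower peaks in all 4 conditions, while its period is longer in both control conditions and shorter in both BAF-knockdown conditions.

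Single promoters were compared by limma on the log2 ratio of a window to the whole 2 kb region (pseudocount 0.1, so that folds of low windows are understated), over the 12735 promoters with at least 50% filled bins. No promoter passed an adjusted p of 0.05 for the net difference in the TSS window (−150 to 0 bp), where 0% were called in either direction. At an unadjusted p under 0.05, 216 were higher and 484 lower. In the window of the +1 nucleosome (60 to 210 bp) 293 were higher and 335 lower, in that of the −1 nucleosome (−300 to −150 bp) 268 and 322, and in patterning level 381 and 257, again with 0% called after adjustment. A patterning level sums occupancy over the region weighted by the shape of the mean active promoter in a pooled library of resting fibroblasts.

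At the median promoter the net difference was negative, as in the mean profiles, but 04U minus 12U in BAF-knockdown cells had the opposite sign. The net TSS-window difference had a median of −0.15 (log2) and was negative at 54.9% of promoters. Its median was 0.0518 for 04U minus 12U in BAF-knockdown cells and 0.207 for the replicates of control cells. Quantile normalisation between libraries moved the net median by more than its size, to 0.0541, so that its direction holds only for the occupancies as deposited. By GC quintile the net medians were −0.0281, −0.0651, −0.207, −0.272 and −0.33. At the +1 and −1 windows the net medians were −0.0264 and −0.00526.

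Both BAF-knockdown differences lay below both control differences at 2486 promoters (19.5%) in the TSS window and above them at 1807 (14.2%). If the differences were interchangeable between the lines, full separation in either direction would have a share of 0.333, as in the permutation test. Both directions together came close to that share, so these counts are not a result about the promoters. Among CGI promoters the shares were 21.6% below and 12.8% above, and among non-CGI promoters 16.8% below and 16.1% above. In the +1 window, 16.8% of all promoters lay below and 16.3% above.

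Single promoters were measured with a wide error. The SE of a net TSS-window difference had a median of 1.3 (log2), and the TSS window stood at 0 at 9.27% of promoters in the resting 04U library, 16.8% in the stimulated 04U library and 10.9% to 23.2% in the 12U libraries. Values of the 2 replicates of a condition correlated across promoters at r = 0.231 to 0.376 in the TSS window, as a description of 12735 promoters that share their libraries. Replicate differences of different conditions had r between −0.0104 and 0.0188. In the mean profile over 200 bins, in contrast, the replicate differences of resting and stimulated cells had r = 0.778 in BAF-knockdown and r = 0.807 in control cells, and r = 0.0756 to 0.385 between the lines.

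The promoters named next had the largest statistics among those where both BAF-knockdown differences lay beyond both control differences. This choice favours promoters whose replicates have opposite orders in BAF-knockdown and control cells, so such an order is not a separate result. None was called, and all had an adjusted p of 0.774 by limma. Since most of these windows stood at 0 in 1 library of a pair, the values depend on the pseudocount and are not fold changes. Of 18 such windows read from the genome, 16 held an annotated exon of the gene or a neighbour. The 2 without one are shown, 1 from each direction, to let the CpG content of the compared window be seen, from 150 bp upstream up to the TSS, in mm9 and read towards the TSS. Capitals mark CpG dinucleotides.
Pet100, chr8:3621402-3621551 (+): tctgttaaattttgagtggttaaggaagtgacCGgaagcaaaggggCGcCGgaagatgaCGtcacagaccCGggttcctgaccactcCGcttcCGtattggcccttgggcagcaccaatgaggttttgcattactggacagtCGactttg
Pygl, chr12:71328671-71328820 (−): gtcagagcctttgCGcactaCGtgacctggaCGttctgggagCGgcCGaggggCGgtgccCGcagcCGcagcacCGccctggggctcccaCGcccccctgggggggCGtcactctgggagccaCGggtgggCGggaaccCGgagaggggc
The Pet100 window holds 8 CpGs at 52.7% GC and lies outside annotated transcripts, and that of Pygl holds 14 at 75.3% GC and lies in a transcript of Pygl but in no exon. The median over all 12735 tested windows was 8, with 3 and 14 as quartiles.

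Among promoters with a lower net difference were Fam219a, Mdh1, Dctn3, Fau, Bub1, Pet100, Crygd, Shc1, Slc66a2 and Sncaip. Mdh1, the cytosolic malate dehydrogenase, had TSS-window occupancies of 0 in both 04U libraries and of 0.97 (resting) and 0.943 (stimulated) in the 12U libraries of BAF-knockdown cells. Its control windows had 0.862 and 0.433 in replicate 1 and 0 in both of replicate 2. The order of the replicates was therefore opposite in the 2 lines, with a net difference of −6.15 ± 0.985 (log2, SE). Dctn3, a dynactin subunit, had 0.0228 and 0.0647 with 04U and 1.19 and 0.767 with 12U in BAF-knockdown cells, and 0.833 and 0.83 in replicate 1 and 0 in replicate 2 of control cells. Pet100, a factor in the assembly of cytochrome c oxidase, had 0.19 and 0 with 04U and 1 and 1.29 with 12U, and 1.17 and 1.37 against 0 and 0.0178 in control cells. The mitotic checkpoint kinase Bub1 and Fau, whose product carries ribosomal protein S30, had net differences of −5.65 ± 0.969 and −5.98 ± 1.01. CGI promoters made up 8 of these 10, 8 of the 10 with a higher net difference and 7286 of all 12735 tested.

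Promoters with a higher net difference were Pdp1, Dst, Acaa1a, Pygl, Arrb1, F730035M05Rik, Dtx3, Cep83, Ago4 and Tpbg. Dst, which encodes the cytoskeletal linker dystonin, had 1.28 and 1.49 in the 04U libraries and 0 in both 12U libraries of BAF-knockdown cells. Its control windows had 0 in both of replicate 1 and 0.946 and 1.47 in replicate 2, for a net difference of 7.18 ± 0.975. Pdp1, a phosphatase that activates pyruvate dehydrogenase, had 1.12 and 0.773 with 04U and 0.0311 and 0 with 12U, and 0 against 1.84 and 2.95 in control cells. Pygl, the liver glycogen phosphorylase, had 0.69 and 1.72 with 04U and 0 and 0.0367 with 12U, and 0 and 0.199 against 0.451 and 1.29 in control cells. F730035M05Rik starts in the opposite direction close to Pygl and shares most of its window, so it is not a separate observation. Tpbg, the trophoblast glycoprotein, had 2.11 and 0.755 with 04U and 0.0495 and 0.0266 with 12U, and 0.302 and 0.588 against 2.42 and 1.13 in control cells. In 9 of these 10 as well, the control replicates parted the other way in both states, with log2 differences of −0.97 or below. The choice by net difference favours this opposite order.

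**Figure D5:**
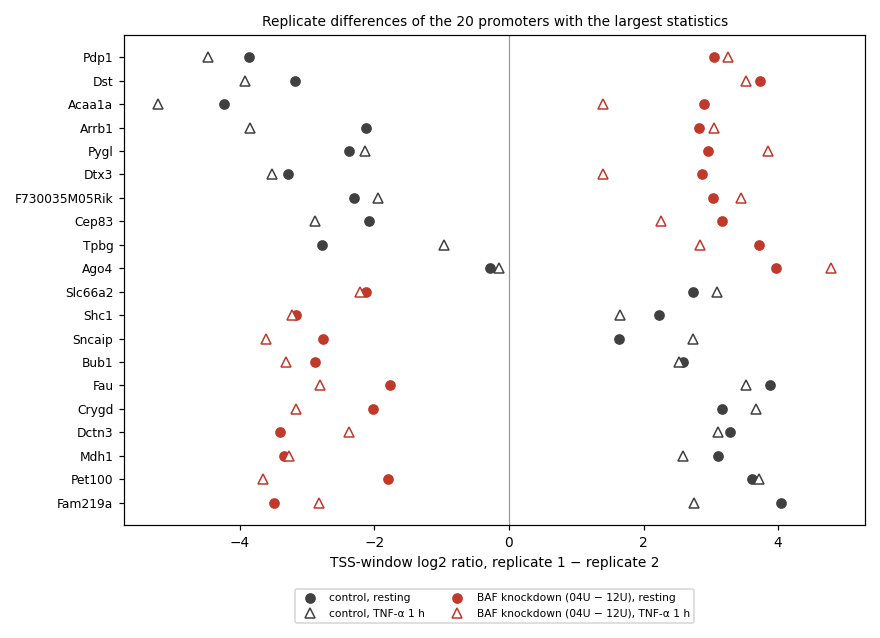
TSS-window log2 ratio, replicate 1 minus replicate 2, of the 20 promoters with the largest statistics for the net difference. Grey points are control cells (12U in both replicates) and red points BAF-knockdown cells (04U minus 12U), with circles for resting and triangles for stimulated cells. At 19 of the 20 promoters the red points stand well away from 0 on one side and the grey points on the other, and at Ago4 both control differences are close to 0. The choice of promoters by net difference favours such opposite sides.

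Ago4, an Argonaute protein of small RNA pathways, was the exception. Its TSS window had 1.47 and 2.61 in the resting and stimulated 04U libraries and was at 0 in the 6 libraries with 12U. Its +1 window went the other way, at 0 in both 04U libraries and at 2.22 and 3.33 in the 12U libraries of BAF-knockdown cells, with 1.31 and 1.76 in control replicate 1 and 0 in control replicate 2. Patterning levels of Ago4 were −17.1 and −19.9 with 04U and 17.2 and 23.7 with 12U, and between 2.55 and 8.26 in the 4 control libraries. It was the only promoter called in any of the 4 measures for 04U minus 12U within BAF-knockdown cells alone (patterning, lower by 39, adjusted p = 0.0275 by limma, 0.00785% of those tested), and it was singled out after its values were seen. Its net difference of −43.6 ± 6.03 was not called (adjusted p = 0.244 by limma). Its windows rest on few filled bins, 53.2% of the region on average, at a coverage score of 132.5, close to the minimum of 100.

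By the same rule, the +1 window named Ago4, Tmem250-ps and Eri3 as lower and Inpp5f, Apbb2 and Nbr1 as higher, with net differences of −8.61 to −6.85 and 5.08 to 6.62. Nbr1, a selective autophagy receptor, had +1 occupancies of 0.317 and 0.244 with 04U and 0 with 12U, and 0 against 1.02 and 1.67 in control cells. The −1 window named Mir667, Sirpb1c and Zfp444 as lower and Ceacam10, Enkur and Ndufb7 as higher. Ndufb7, a subunit of respiratory complex I, had 0.668 and 1.38 with 04U and 0 with 12U, and 0.631 and 0.572 against 1.31 and 2.33 in control cells. For patterning, Zdhhc16 and Hipk1 were lower after Ago4, and Pard6b, Pla2g12a and Ttc41 higher. Pard6b, a cell polarity protein, had levels of 8.44 and 8.5 with 04U and −20.4 and −19.1 with 12U, against −12.6 to 0.951 in control cells. None of these passed the test.

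Gene lists were described by their TSS windows beside all promoters tested, where the median net difference was −0.15, 54.9% were negative and 700 had an unadjusted p under 0.05. No member of any list was called. Cytosolic ribosomal protein promoters, which serve strongly and steadily transcribed genes, had a median of −0.225 over 67 promoters, 53.7% negative, with 18 below and 9 above both control differences (19.5% and 14.2% of all promoters). Rpl35a had the lowest value of the list (−5.04 ± 1.25), with 0.0111 and 0 with 04U, 0.959 and 0.789 with 12U, and 0.674, 0, 0.72 and 0.427 in control cells (replicates 1 and 2 at rest, then stimulated). Rpl15 had the highest (3.62 ± 1.62). The NDR ratio of the list, taken over its 71 promoters with a score above 100, ranged from 0.336 to 0.724 over the libraries. It was lower with 04U by 0.124 at rest and by 0.0261 after stimulation, with 0.315 and 0.0672 as the control differences.

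Replication-dependent histone promoters, active in S phase, had a median of −0.6 over 51 promoters and 64.7% negative. Of the 51, 14 lay below and 3 above both control differences (19.5% and 14.2% of all promoters). Their NDR ratio was taken over all 65 promoters of the list with a score above 100. It was 1.027 (04U) against 1.141 (12U) in resting and 0.637 against 0.932 in stimulated BAF-knockdown cells. In control cells it was 1.056 and 0.615 at rest and 0.789 and 0.896 after stimulation, so that the control replicates had no common order. H4c11 (−5.51 ± 1.51) and H4c12 (3.3 ± 2.27), both histone H4 genes, were lowest and highest. Histone genes have many similar copies, and the study kept only fragments that map to a single promoter region. Whether this lowered coverage at histone promoters was not tested.

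Immediate early and AP-1 genes, among the first genes induced by a stimulus, had a median of −0.513 over 11 promoters. Values went from Dusp1 (−2.39 ± 1.18), a MAP kinase phosphatase, to Egr3 (3.45 ± 1.87). The sign at Dusp1 turned with a window of −100 to 50 bp. Of the 11, 3 lay below and 2 above both control differences (19.5% and 14.2% of all promoters). TNF and NF-κB target genes had a median of 0.18 over 24 promoters with 41.7% negative, and 4 lay below and 5 above both control differences. Tnfaip3, the feedback inhibitor A20, was lowest (−4.32 ± 1.67), with 0 and 0.333 with 04U, 1.02 and 0.904 with 12U, and 1.63 and 0.93 in replicate 1 and 0 and 1.3 in replicate 2 of control cells. Irf1, an interferon-regulatory factor, was highest (2.95 ± 1.28). The NDR ratio of these TNF targets was 0.645 (04U) and 0.611 (12U) at rest and 0.648 and 0.719 after stimulation. Control replicates 1 and 2 had 0.663 and 0.7 at rest and 0.651 and 0.584 after stimulation, and the net difference was −0.0339 ± 0.0913.

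BAF subunit promoters had a median of −1.04 over 14 promoters, of which 3 lay below both control differences and 0 above, against 19.5% and 14.2% of all promoters. Ss18 was lowest (−3.05 ± 1.84) and Smarcd2 highest (2.14 ± 1.73), each within 2 SE of 0, and Smarcd2 was at 0 in every library but the stimulated control replicate 2. Smarca4, the Brg1 gene targeted by the shRNA, had TSS-window occupancies of 1.05 (04U) and 0.973 (12U) in resting and 0 in both stimulated BAF-knockdown libraries, and 0.787 in the resting control replicate 1 and 0 in the other 3 control libraries. Its net difference of −1.04 ± 1.46 was within its error. Fibroblast matrix and stromal genes had a median of 0.746 over 14 promoters, of which 6 lay above and 3 below both control differences, against 14.2% and 19.5% of all promoters. Fn1, which encodes fibronectin, had 0.708 and 0.746 with 04U and 0 in both 12U libraries of BAF-knockdown cells, and 0.278, 1.63, 1.11 and 1.27 in control cells, for a net difference of 4.37 ± 1.12. Lox, a collagen cross-linking oxidase, was lowest (−1.76 ± 1.13).

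As a check of the labelled cell type, fibroblast markers (7 promoters used of 6 genes) had NDR ratios of 0.402 to 1.401 over the libraries and haematopoietic markers (9 promoters of 8 genes) 0.618 to 1.379. These ranges overlap, so occupancy at so few promoters does not check the label, and the libraries hold no expression of their own. Their net medians were −1.34 and −0.323. Thy1 was the lowest and Fn1 the highest of the fibroblast markers, and Itgax the lowest and Csf1r the highest of the haematopoietic markers, with net differences of −1.51, 4.37, −1.18 and 1.43.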

How the data were processed

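ChIP-MNase libraries for H3K4me1 were made by the authors from fixed 3T3 fibroblasts by digesting recovered chromatin of 5 to 10 kb on beads. Reads were aligned to mm9 (bowtie per the methods, Bowtie2 and bedtools per the submitters' processing notes). The deposited occupancy signal is in bins of 10 bp, relative to the surrounding 1 kb and smoothed over 50 bp. The authors' table gives each promoter a coverage score (mean fragments near the TSS in resting H3K4me1 data) and an expression signal from public RNA-seq of fibroblasts. Its columns of stimulation differences are the authors' own comparisons and were not used, so the inducible class that had been planned was not built and active promoters may hold inducible ones. An empty cell was read as 0. The study states a range of sequencing depth over its samples but none per library used here, so no interval for counting error was given.

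From these values, window ratios (pseudocount 0.1, score above 100, at least 50% filled bins) were fitted with limma 3.58.1 in R 4.3.3 on line, replicate, stimulation and code, with Benjamini-Hochberg adjustment over 12735 promoters and 3 residual degrees of freedom, and mean-profile values with ordinary least squares and exact permutation. The fit was tested on simulated data with normal errors, whose outcome is not given here. Such data lack the empty TSS windows of the real libraries, so the test does not cover them. CGI promoters had over 50% GC and over 0.6 of the CpGs expected, within 200 bp of the TSS. Sequences came from mm9, and symbols from the reference (96.3% of promoters matched). Named promoters were those called, or else those with the largest statistic where both BAF-knockdown differences lay beyond both control differences, 10 per direction for the TSS window and 3 for the others, with the extremes of each list. Members and lists were chosen with earlier results of these data known.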

Additional observations from a re-analysis of the deposited data

Results flagged for a closer look

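Both BAF-knockdown differences (04U minus 12U) were opposite in sign to both control differences (12U minus 12U) in several library values, and an exact permutation of the 4 replicate differences, which cannot go below p = 0.333, cannot test that difference between the lines at 0.05. The net NDR ratio met this at active promoters (−0.128), all promoters (−0.0927), inactive (−0.0487), CGI (−0.137), non-CGI (−0.0334), active CGI (−0.15), inactive CGI (−0.107) and inactive non-CGI promoters (−0.0372). It was also met by expression quintiles 3 (−0.129) and 4 (−0.154) of active promoters and by GC quintiles 2 (−0.0585), 3 (−0.111) and 4 (−0.124), counted from the lowest. These classes share promoters and libraries and are not separate observations. The period met it too (−5.31 bp, well beyond its SE of 0.559 bp), with 2 control differences above 3 bp and BAF-knockdown differences of −2.05 and −0.784 bp. Its SE was larger at a coverage score above 200 (−6.66 ± 2.6 bp). The causes were not tested.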

How the results depend on the processing

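No promoter was called for the net difference under any alternative with the replicate block in the 4 measures, nor any list member. Without the replicate block (04U minus 12U within BAF-knockdown cells alone) 1 promoter was called, for patterning (Ago4, −39). Replicate differences of different conditions correlated across promoters at no more than 0.0188. In mean profiles they correlated at 0.778 and 0.807 within a line and at 0.0756 to 0.385 between lines. Filled bins and the heights of the +1 and −1 peaks differed by replicate number in the same direction in all 4 conditions. What the number marks within a line was not tested. Without the block the net values became 8.94 percentage points of filled bins, −0.0119 and −0.0139 in NDR ratio (active and all promoters), −0.151 in +1 height, 0.21 in phasing amplitude and −1.42 bp in period. The sign turned without the block for expression quintile 2 (0.00355), the lowest GC quintile (−0.0105), the −1 peak (−0.0552), Smarcd2 (−0.18), Smarca4 (0.196) and the medians of the TSS window (0.0518), −1 window (0.0263) and patterning (−0.0806).

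Other settings moved fewer values. The +1 height was −0.226 with medians of promoters, phasing amplitude 2.04 over 100 to 600 bp, and the period −6.66 ± 2.6 bp (SE) at a score above 200. The −1 peak turned to −0.0136 at a score above 200 and to −0.0941 with medians. The lowest GC quintile turned to −0.00955 with square roots and −0.0187 with a window of −100 to 50 bp, which also turned Dusp1 (0.853) and Smarcd2 (−1.97). Quantile normalisation turned the medians of the TSS (0.0541), +1 (0.016) and −1 windows (0.0112) and of patterning (−0.0321). The +1 median was 0.0198 with at least 80% filled bins, and the −1 median 0.00292 with a pseudocount of 0.5.

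Leaving out 1 library at a time gave −1.14 to 3.97 points of filled bins, NDR ratios of −0.205 to −0.0503 (active) and −0.139 to −0.0464 (all), +1 heights of −0.0692 to −0.0105, phasing amplitudes of 0.547 to 1.73, periods of −5.73 to −4.89 bp and GC slopes of −0.0969 to −0.00274. The sign was not kept in these ranges for filled bins at active promoters (−0.0293 to 4.37), the lowest GC quintile (−0.0172 to 0.0202), the −1 peak (−0.00976 to 0.0157), Smarca4 (−2.7 to 0.621), Smarcd2 (−0.0539 to 4.32) and the medians of the +1 (−0.116 to 0.059) and −1 windows (−0.0616 to 0.0499). The causes were not tested. With 2 libraries per code and sparse windows, single promoters are limited by their error, and all net values hold whatever else differs between replicates in 1 line.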
